A study of Mus musculus with 12 samples.

Results

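The *Xlr3* and *Xlr4* genes are duplicated, X-linked lymphocyte-regulated genes of the mouse. The 6 genes described here are *Xlr3a*, *Xlr3b*, *Xlr3c*, *Xlr4a*, *Xlr4b* and *Xlr4c*. They were chosen by name, as the listed transcripts whose RefSeq accession belongs to one of these symbols, after *Xlr3a* was known to differ between the *Stella*-knockout line and its control. They account for 11 of 41388 listed transcripts and for 6 of 24813 genes with a symbol. The values of the knockout comparison therefore chose the family, and they are given as a description without a test. The comparison of the overexpressing line with its control uses other libraries, and there the members were tested.

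The Xlr genes take their name from a gene first described in lymphocytes. Their proteins share a domain with SYCP3, a structural protein of the synaptonemal complex that holds paired chromosomes together in meiosis, and relatives of the family on the sex chromosomes are expressed in the male germline. In mouse brain, *Xlr3b*, *Xlr4b* and *Xlr4c* are known as imprinted genes expressed mainly from the maternal X chromosome. Copies that arose by duplication stay so alike that a short sequencing read often cannot be assigned to one of them.

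RNA-seq was performed on mouse female germline stem cells (FGSCs), cultured cells that self-renew and can give rise to oocytes, in 4 groups of 3 libraries. All 12 libraries came from C57BL/6 cells at more than 20 passages, grown on mitotically inactivated STO feeder cells in medium with LIF, EGF, bFGF and GDNF. KO carried a knockout of *Stella* (listed as Dppa3, a maternal effect gene) made with a pair of CRISPR/Cas9 sgRNAs and was 1 randomly selected clone, so the clone and the knockout cannot be told apart. KO-con was its control, of which the labels give no more than that. Over carried a lentiviral *Stella* transgene, and Over-con carried the empty lentiviral vector. The files give raw read counts for each transcript, as deposited by the authors.

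Library totals lay between 5611846 and 12866545 counts. Dppa3 had 0 counts in every KO, KO-con and Over-con library and 347, 371 and 285 in the Over libraries, so it does not tell KO from KO-con. Of the 12 germ cell markers, *Ddx4* and *Figla* were at 0 counts in all 12 libraries. *Dazl*, *Pou5f1* and *Stra8* had 1 count each over all 12. Genes listed with 1 transcript held 95.7% of all counts and genes with more than 1 held 3.63%, and *Gapdh*, with 2 listed transcripts, had 23 counts over all 12 libraries. A low value of a gene with several listed transcripts can therefore not be read as low expression. Among the members this touches *Xlr4b*, which is listed with 6 transcripts, 5 of them at 0.

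All 6 genes lie in 1 cluster on chromosome X of the mm9 genome, and each has 9 exons in the annotation of that build. From low to high coordinates they are *Xlr4a* (70319684 to 70327817, minus strand), *Xlr3a* (70331632 to 70342434, minus strand), *Xlr3b* (70437546 to 70448269, plus strand), *Xlr4b* (70459672 to 70467795, plus strand), *Xlr4c* (70479027 to 70488469, minus strand) and *Xlr3c* (70499879 to 70510729, minus strand). No other annotated gene overlapped a member. The coding sequence has 678 bases in each *Xlr3* gene and 645 in each *Xlr4* gene. *Xlr3b* and *Xlr3c* were identical over 99.41% of the coding bases, and *Xlr3a* was identical to either over 98.23%. The *Xlr4* genes were identical to each other over 98.91% to 99.53%, and an *Xlr3* and an *Xlr4* gene over 64.9% to 65.84% of the aligned bases.

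The *Xlr3* coding sequences differ at 14 of 678 positions. At 10 of these *Xlr3a* alone carries a different base, at 2 *Xlr3b* and at 2 *Xlr3c*, so *Xlr3a* is the most distinct copy. The stretch of 60 coding bases within 1 exon that holds the most *Xlr3a*-specific positions is shown because it is where a read can tell *Xlr3a* from both other copies. It covers coding bases 434 to 493, and capitals mark the 3 positions where the copies differ, at each of which *Xlr3b* and *Xlr3c* carry the same base. The stretches lie at chrX:70334774-70334833 (minus strand), chrX:70445089-70445148 (plus strand) and chrX:70503010-70503069 (minus strand) of mm9, in that order.
Xlr3a: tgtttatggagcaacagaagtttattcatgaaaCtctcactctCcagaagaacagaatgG
Xlr3b: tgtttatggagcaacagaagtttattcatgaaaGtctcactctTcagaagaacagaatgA
Xlr3c: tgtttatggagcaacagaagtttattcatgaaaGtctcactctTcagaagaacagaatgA

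The share of each gene that could be told from its copies was measured by looking up every window of a fixed length within its exons on both strands of mm9. Of the windows of 50 bases, 24.62% in *Xlr3a* occurred at a single place in the genome, 0.2591% in *Xlr3b* (3 of 1158) and 16.9% in *Xlr3c*. For *Xlr4a*, *Xlr4b* and *Xlr4c* the shares were 25.66%, 17.23% and 25.56%. At 150 bases the shares rose to 50.34%, 46.31% and 71.62% for the *Xlr3* genes and to between 82.14% and 96.77% for the *Xlr4* genes. *Xlr3b* was thus the least distinguishable member at each of the 4 lengths tried. The read length, and whether the counting kept reads that match several places, are not given in the sources used here, so a level of 1 member may include or miss reads of another.

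**Figure D1:**
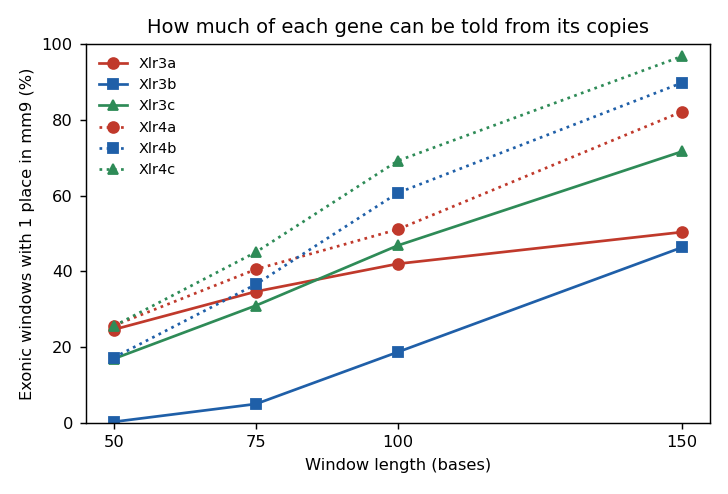
The percentage of exonic windows of each member that occur at 1 place in mm9, against window length in bases (50, 75, 100 and 150); solid lines are *Xlr3* genes and dotted lines *Xlr4* genes. *Xlr3b* lies lowest at every length, at 0.2591% for 50 bases and 46.31% for 150.

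The promoters of the *Xlr3* genes are shown because the values of these 3 near-identical genes are compared below. Each is the window of 300 bases around the gene start in the RefSeq table of GRCm38.p6, and each had 1 exact match in mm9, at chrX:70342385-70342684 (minus strand), chrX:70437268-70437567 (plus strand) and chrX:70510680-70510979 (minus strand). Capitals mark CpG dinucleotides, the sites of DNA methylation.
Xlr3a: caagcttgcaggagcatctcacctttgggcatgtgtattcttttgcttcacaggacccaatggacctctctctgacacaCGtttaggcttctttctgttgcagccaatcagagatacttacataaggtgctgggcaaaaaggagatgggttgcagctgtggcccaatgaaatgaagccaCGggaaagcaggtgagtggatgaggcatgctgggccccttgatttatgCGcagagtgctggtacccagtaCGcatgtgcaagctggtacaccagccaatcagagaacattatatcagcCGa
Xlr3b: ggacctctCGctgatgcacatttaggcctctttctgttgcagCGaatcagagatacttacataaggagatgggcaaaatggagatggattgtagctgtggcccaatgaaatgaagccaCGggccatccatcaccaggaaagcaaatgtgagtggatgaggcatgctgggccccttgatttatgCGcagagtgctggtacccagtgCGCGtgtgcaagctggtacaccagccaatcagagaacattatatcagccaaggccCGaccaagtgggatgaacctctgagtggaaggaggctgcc
Xlr3c: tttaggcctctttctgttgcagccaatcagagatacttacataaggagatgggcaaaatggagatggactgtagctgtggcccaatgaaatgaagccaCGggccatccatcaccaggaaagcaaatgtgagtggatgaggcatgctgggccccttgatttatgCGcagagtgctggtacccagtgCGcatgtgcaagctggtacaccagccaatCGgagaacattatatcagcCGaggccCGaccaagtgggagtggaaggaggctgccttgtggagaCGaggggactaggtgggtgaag

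The windows of *Xlr3b* and *Xlr3c* were identical at 98.14% of 269 aligned bases, and that of *Xlr3a* matched *Xlr3b* at 93.72% of 239 and *Xlr3c* at 95.43% of 219. The windows held 5 CpGs in *Xlr3a*, 7 in *Xlr3b* and 7 in *Xlr3c*, and 8, 8 and 7 in *Xlr4a*, *Xlr4b* and *Xlr4c*. The median over 32851 promoters of the same table was 7, with quartiles at 3 and 20, and all 6 members lay below the upper quartile. The letters CCAAT, searched on both strands, occurred 4 times in *Xlr3a*, 2 times in *Xlr3b*, 3 times in *Xlr3c* and 1 time in each *Xlr4* gene, and 37.41% of all promoters hold them. 4 other sets of letters did not occur on either strand of the 6 windows. These were TATAAA (held by 13.62% of all promoters), GGGCGG (35.66%), CACGTG (7.15%) and TCCCGC (19.98%). Methylation of these windows was not analysed here.

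By the counts assigned to them, *Xlr3a* and *Xlr3b* were the highest members, *Xlr3c* was low and the *Xlr4* genes were near the limit of detection. Reads shared between copies and, for *Xlr4b*, the listing with several transcripts limit this ranking. Levels are given in CPM, with library sizes set by TMM over the 12 libraries, and a value of 3 counts in a library corresponds to between 0.23 and 0.529 CPM (a floor for counting error only). Over the 12 libraries *Xlr3a* averaged 65.9 CPM, *Xlr3b* 65.7, *Xlr3c* 4.67, *Xlr4b* 0.724, *Xlr4a* 0.67 and *Xlr4c* 0.659. Per kilobase of annotated transcript, the KO-con levels were 41.8 CPM for *Xlr3a*, 46.2 for *Xlr3b* and 3.30 for *Xlr3c*. In these bulk libraries, fewer cells that express a gene and less RNA per cell cannot be told apart.

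*Xlr3a* (NM_001110784) was the member whose level varied most between groups. It had 647, 684 and 580 counts in the KO-con libraries, 88, 108 and 98 in KO, 1045, 722 and 1240 in Over-con and 683, 819 and 764 in Over. In CPM the libraries stood at 67.0, 61.3 and 70.4 in KO-con, at 10.2, 9.38 and 8.91 in KO, at 107.3, 127.3 and 120.5 in Over-con and at 63.3, 62.8 and 81.8 in Over. The order of the group means was Over-con (118.4 ± 10.2, SD, n = 3), Over (69.3 ± 10.8), KO-con (66.2 ± 4.59) and KO (9.48 ± 0.629). The Over-con libraries were all above the rest and the KO libraries all below, while the ranges of Over and KO-con overlapped.

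*Xlr3b* (NM_001081643) varied less between the groups than *Xlr3a* did. Its CPM were 68.9, 60.2 and 87.7 in KO-con, 77.0, 74.5 and 72.8 in KO, 50.4, 68.2 and 64.9 in Over-con and 52.5, 51.5 and 59.2 in Over. The means were 74.8 ± 2.09 in KO, 72.3 ± 14.1 in KO-con, 61.2 ± 9.48 in Over-con and 54.4 ± 4.18 in Over (SD, n = 3). Each group overlapped the next in this order, but the Over libraries all lay below those of KO and KO-con. The order differs from that of *Xlr3a*, with KO first instead of last.

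*Xlr3c* (NM_011727) stood at 4.56, 3.94 and 7.16 CPM in KO-con, 5.31, 5.39 and 4.73 in KO, 5.03, 4.06 and 3.4 in Over-con and 3.06, 4.91 and 4.50 in Over, on 23 to 64 counts a library. The group means lay between 4.16 and 5.22 CPM and all neighbouring ranges overlapped.

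The *Xlr4* genes were at 0 to 18 counts a library. *Xlr4a* (NM_001081642) had 0, 16 and 9 counts in KO-con, 3, 2 and 3 in KO, 6, 6 and 8 in Over-con and 8, 6 and 10 in Over. *Xlr4b* (NM_021365) had 2, 3 and 8 in KO-con, 10, 6 and 10 in KO, 8, 4 and 18 in Over-con and 9, 3 and 3 in Over. *Xlr4c* (NM_183094) had 10, 4 and 0 in KO-con, 11, 9 and 15 in KO, 1, 8 and 7 in Over-con and 2, 1 and 6 in Over. Replicates of 1 group differed by up to 16 counts in *Xlr4a*, and the depth does not allow a difference between groups to be resolved for these genes.

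**Figure D2:**
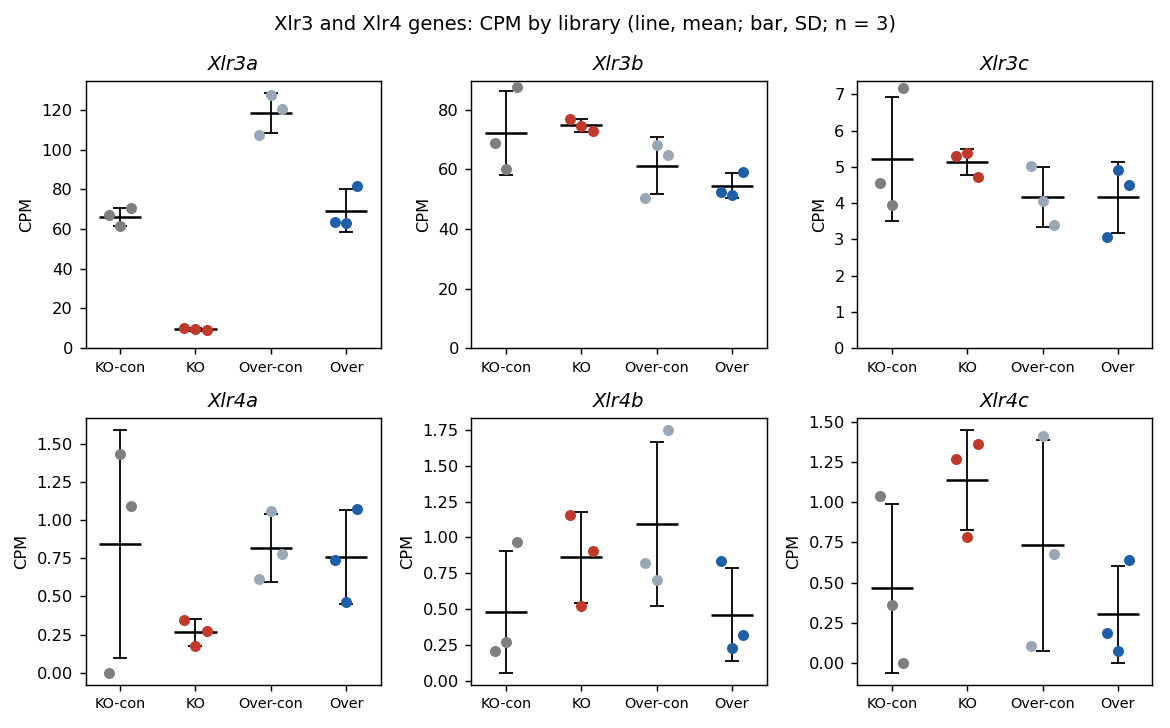
CPM of each of the 6 genes (vertical axes, which differ between panels and start at or below 0) in KO-con, KO, Over-con and Over; points are libraries, lines are group means and bars are SD with n = 3. *Xlr3a* lies at 8.91 to 10.2 CPM in KO, below all other libraries, and at 107.3 to 127.3 in Over-con, above them, while *Xlr3b* and *Xlr3c* overlap between neighbouring groups and the *Xlr4* genes stay at or under 1.75 CPM.

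The knockout comparison sets the knockout clone beside its control, and Dppa3 had 0 counts in both groups. *Xlr3a* was 6.96-fold lower in KO than in KO-con (log2 fold change -2.80, standard error, or SE, 0.11), and the groups did not overlap. *Xlr3b* stood at 0.061 (SE 0.11) and *Xlr3c* at 0.01 (SE 0.23) on the log2 scale, each with overlapping groups. With *Xlr3b* near the same level in both groups, the *Xlr3* genes together were lower by less than *Xlr3a* was, from 143.8 ± 20.1 to 89.4 ± 2.99 CPM (log2 fold change -0.68, SE 0.09).

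*Xlr4c* stood at 1.22 (SE 0.62) on the log2 scale in KO against KO-con, on 35 counts against 14, with overlapping groups. *Xlr4a* and *Xlr4b* did not pass the filter on low counts (edgeR's filterByExpr), which 4 of the 6 members passed. The *Xlr4* sum was 2.26 ± 0.691 CPM in KO and 1.79 ± 0.473 in KO-con. Genes were called differentially expressed (DEGs) where the fold change exceeded 1 on the log2 scale, in either direction, at an adjusted p under 0.05. Of the 4 members tested 1, *Xlr3a*, was a DEG, where 161 of 9457 transcripts (1.7%) were. Since *Xlr3a* brought the family into view, nothing is read from that count. Without the KO-con library 1 the count was 2, because *Xlr4c*, then at a log2 fold change of 2.40 against libraries with 4 and 0 counts, also passed.

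Against Over-con the log2 fold change of *Xlr3a* in KO was -3.64, and leaving out any 1 of the 6 libraries of the comparison gave values between -2.85 and -2.75. These values use the KO libraries through which the family was chosen and are a description.

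Markers of other cell types were different between the same groups. The summed level of 11 mast cell markers was 1149.5 to 1231 CPM in KO and 372 to 431 in KO-con. Of these sums *Cpa3*, a mast cell carboxypeptidase, made up 1172 ± 39.6 and 401.6 ± 33.4, and *Fcer1a*, *Ms4a2* and *Tpsab1* were at 0 in all libraries. Of the 4 mast cell transcripts tested 3 were DEGs by edgeR, those of *Cpa3*, *Cma1* and *Hdc*, all higher in KO. With at least 10 counts required in every library the mast cell list held 1 DEG. The summed fibroblast and feeder markers overlapped between the groups, at 3111 to 3285 in KO and 3135 to 3175 in KO-con, and also without *Vim*, an intermediate filament gene that made up most of the sum, at 978.6 to 1402 and 1118 to 1318. Of the 11 transcripts tested from this list 2 fell at an adjusted p under 0.05. *Dcn*, an extracellular matrix proteoglycan, fell by 0.41 on the log2 scale in 1 of its transcripts (adjusted p = 0.0224, edgeR), and *Pdgfra*, a growth factor receptor, by 1.56 in 1 transcript (adjusted p = 0.00998, edgeR), which was a DEG, and stood at -0.41 in the other (adjusted p = 0.543, edgeR). Without KO library 2 or KO-con library 1 the list held 0 DEGs. The 6 macrophage markers summed to 39.4 to 47.4 CPM in KO and 27.5 to 34.8 in KO-con, nearly all of it *Cd68*, a lysosomal membrane protein, with *Adgre1* and *Itgam* at 0 in all libraries. The 12 germ cell markers overlapped, at 80.2 to 120.2 CPM in KO and 115.1 to 139.7 in KO-con. Nearly all of it was *Ifitm3*, an interferon-induced membrane protein gene used as an early germ cell marker, at 95.3 ± 21.4 and 120.7 ± 13.5 CPM. Among the germ cell markers *Prdm1*, a regulator of germ cell specification, fell from 1.85 ± 0.138 to 0.313 ± 0.108 CPM (adjusted p = 0.00147, edgeR). That list held 0 DEGs by DESeq2, with at least 10 counts required in every library and against Over-con, where *Prdm1* was at 0.675 ± 0.13 CPM, and *Prdm1* also differed between the controls (adjusted p = 0.0175, edgeR), higher in KO-con. The part of these cell type markers in the *Xlr3a* difference was not tested.

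Markers of lymphocytes, the cells in which the family was first described, were at or near 0, with the same limit for genes that have several listed transcripts. The 8 T lymphocyte markers summed to between 0 and 0.927 CPM, with *Lck*, *Cd8a* and *Cd3g* at 0 counts in all libraries. The 7 B lymphocyte markers reported here summed to between 0.104 and 1.09 CPM, with *Cd22* and *Cd79b* at 0. No marker of either list passed the filter in any comparison, whereas *Xlr3a* and *Xlr3b* reached 118.4 and 74.8 CPM in group means.

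The overexpression comparison asks what was different when *Stella* was added. *Xlr3a* was 1.70-fold lower in Over than in Over-con, the 3 Over libraries all lying below the 3 Over-con libraries. On the log2 scale it fell by 0.77 (SE 0.10), with an adjusted p = 0.000592 in the quasi-likelihood test of edgeR, adjusted by the Benjamini-Hochberg method over 9401 transcripts. The size stayed under the DEG threshold, so 0 members were DEGs, where 16 of 9401 transcripts (0.17%) were. By adjusted p alone 1 of the 3 members tested passed, where 155 transcripts (1.65%) did. At an unadjusted p under 0.05 the same 1 member passed, and DESeq2 and limma-voom also gave 0 DEGs among the members. By adjusted p, *Xlr3a* stayed called under each removal of 1 library, at log2 fold changes of -0.89 to -0.70 and adjusted p of 1.84e-05 to 0.0117 (edgeR).

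The cell type markers also moved between these groups. The mast cell markers summed to 648 to 669 CPM in Over and 760 to 865 in Over-con, and *Cpa3* fell by 0.30 on the log2 scale (adjusted p = 0.0247, edgeR), the direction opposite to that in KO. The other two mast cell markers tested did not pass and stood above 0, *Hdc* at 0.82 (adjusted p = 0.266, edgeR) and *Gata2* at 0.63 (adjusted p = 0.583, edgeR), so the median of the 3 was 0.63. The macrophage markers summed to 42.2 to 43.3 CPM in Over and 29.6 to 33.4 in Over-con, and *Cd68* rose by 0.51 (adjusted p = 0.00645, edgeR), as it did by 0.48 in KO (adjusted p = 0.0158). The fibroblast and feeder markers summed to 3109 to 3251 CPM in Over and 3383 to 3636 in Over-con, with 0 of 11 transcripts passing the adjusted threshold by edgeR and 6 genes at an unadjusted p under 0.05. The germ cell markers summed to 148.9 to 162.0 CPM in Over and 152.9 to 167.0 in Over-con. The Over sum includes the added Dppa3, at 30.4 ± 1.86 CPM, and without it the sums did not overlap, at 118.3 to 133.5 in Over and 152.9 to 167.0 in Over-con. *Ifitm3* made up nearly all of the sum without Dppa3 and fell from 155.0 ± 8.05 to 124.7 ± 8.15 CPM (log2 fold change -0.31, adjusted p = 0.0396, edgeR). The difference of these sums is therefore that of *Ifitm3*, not of the markers as a set. The part of the cell type markers in the *Xlr3a* difference was not tested.

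The fall of *Xlr3a* in Over depended on the control. Against KO-con, Over stood at 0.067 on the log2 scale. That value uses KO-con libraries of the comparison that chose the family and is a description. In the comparison of the 2 controls, KO-con against Over-con, the log2 fold change of *Xlr3a* was -0.83 (SE 0.09), that of *Xlr3b* 0.25 (SE 0.12) and that of *Xlr3c* 0.31 (SE 0.26). No member was a DEG between the controls, where 201 of 9321 transcripts (2.16%) were, and by adjusted p alone 1 member, *Xlr3a*, passed, where 1516 transcripts (16.3%) did. The comparison shares KO-con with the knockout comparison and Over-con with the overexpression comparison, so its values are a description.

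*Xlr3b* and *Xlr3c* did not pass the test in Over against Over-con. *Xlr3b* had a log2 fold change of -0.16 (95% interval -0.36 to 0.05, adjusted p = 0.587, edgeR) and *Xlr3c* one of 0.01 (-0.47 to 0.49, adjusted p = 0.99). Against KO-con, *Xlr3b* in Over stood at -0.40, again as a description. The intervals do not show that the levels were equal. The interval of *Xlr3a* ran from -0.96 to -0.57 and did not meet either. These intervals are a normal approximation from the SE, and the difference between the copies was not tested. The *Xlr3* genes summed to 127.9 ± 15.3 CPM in Over and 183.7 ± 19.0 in Over-con (log2 fold change -0.51, SE 0.09, adjusted p = 0.00782, edgeR). Without the Over library 1 or 2 the adjusted p of the sum was 0.0728 or 0.0861. The *Xlr4* genes did not pass the filter one by one, and their sum stood at -0.80 on the log2 scale (SE 0.39, adjusted p = 0.40, edgeR).

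**Figure D3:**
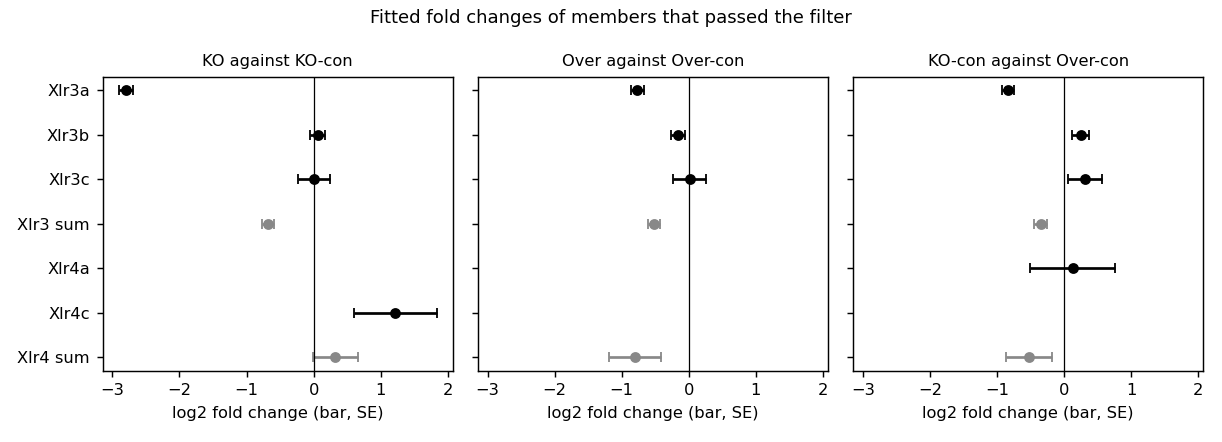
Fitted log2 fold changes (horizontal axis, first group minus second; bars are standard errors) of the members and family sums that passed the filter, in 3 panels (knockout, overexpression and the comparison of the controls); black points are genes and grey points sums. *Xlr3a* lies at -2.80, -0.77 and -0.83, and *Xlr3b* at 0.061, -0.16 and 0.25.

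The share of *Xlr3a* among the counts of the 3 *Xlr3* genes compares the copies within a library and does not depend on library size or on the scaling. It does depend on how reads that match several copies were counted, which is not known. It was 47.7%, 48.9% and 42.6% in KO-con, 11.0%, 10.5% and 10.3% in KO, 65.9%, 63.8% and 63.8% in Over-con and 53.2%, 52.7% and 56.2% in Over. The Wilson 95% intervals of the single libraries, which cover counting error only, ran from 8.53% to 13.3% over the KO libraries and from 40.0% to 51.5% over KO-con. They ran from 50.2% to 58.8% over Over and from 60.9% to 68.2% over Over-con. Means were 64.5% ± 1.23 in Over-con, 54.0% ± 1.91 in Over, 46.4% ± 3.34 in KO-con and 10.6% ± 0.35 in KO (SD, n = 3), and no 2 groups overlapped. The 10.5 percentage points between Over-con and Over gave p = 0.1 in a two-sided exact permutation test, the smallest p that 3 libraries against 3 allow.

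**Figure D4:**
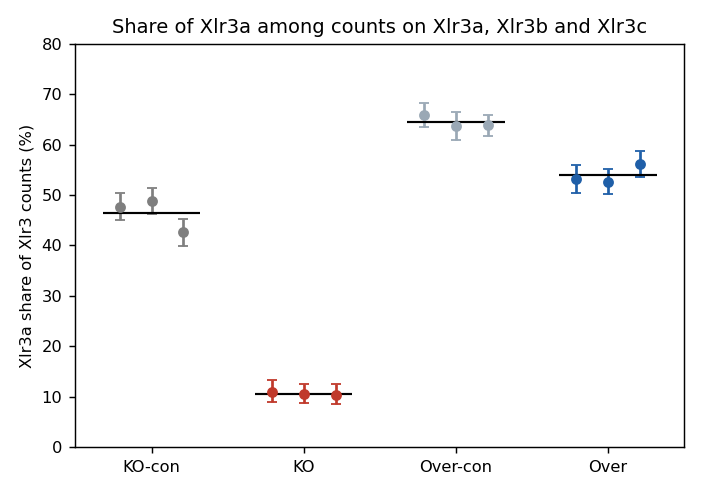
The percentage of *Xlr3a* among the counts on *Xlr3a*, *Xlr3b* and *Xlr3c* (vertical axis) in each library of the 4 groups; bars are Wilson 95% intervals and lines are group means. The KO libraries lie at 10.3% to 11.0% and the Over-con libraries at 63.8% to 65.9%, with KO-con and Over in between and apart from each other.

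The genes around the cluster were examined beside *Xlr3a*. Of the genes reported here, 45 others within 1 Mb of the cluster were in the count table and 14 passed the filter. In KO against KO-con 0 of the 14 were higher and 2 were lower at an adjusted p under 0.05 by edgeR, and 4 had an unadjusted p under 0.05, where 11.8% of all transcripts passed the adjusted threshold. The median log2 fold change of the 14 was -0.02, against 0.01 over all transcripts tested. *L1cam*, a neural adhesion molecule, fell by 0.38 on the log2 scale (adjusted p = 0.0163, edgeR), and *Tktl1*, a transketolase-like gene expressed in the testis, fell by 1.48 (adjusted p = 0.00593, edgeR) and was the 1 DEG, at 1.07 ± 0.101 against 3.01 ± 0.578 CPM.

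In Over against Over-con *L1cam* alone of these 14 passed, with a log2 fold change of -0.39 (adjusted p = 0.0215, edgeR), and the median was 0.0022. Between the controls *L1cam* (-0.77), *Tktl1* (1.54) and *Hcfc1* (0.34) passed, all with an adjusted p under 0.05 by edgeR. *Tktl1* thus differed between the controls in the direction opposite to KO against KO-con, which shares the KO-con libraries. *F8a*, the tested gene that lies between *Xlr4b* and *Xlr4c*, was at 5.05 ± 1.30 CPM in KO-con, 3.61 ± 0.541 in KO, 5.18 ± 0.976 in Over-con and 5.44 ± 0.51 in Over and did not pass in any comparison. *Xlr5a*, *Xlr5b* and *Xlr5c*, which lie beside *Xlr3* genes in the same cluster, had 1, 0 and 0 counts over all 12 libraries.

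**Figure D5:**
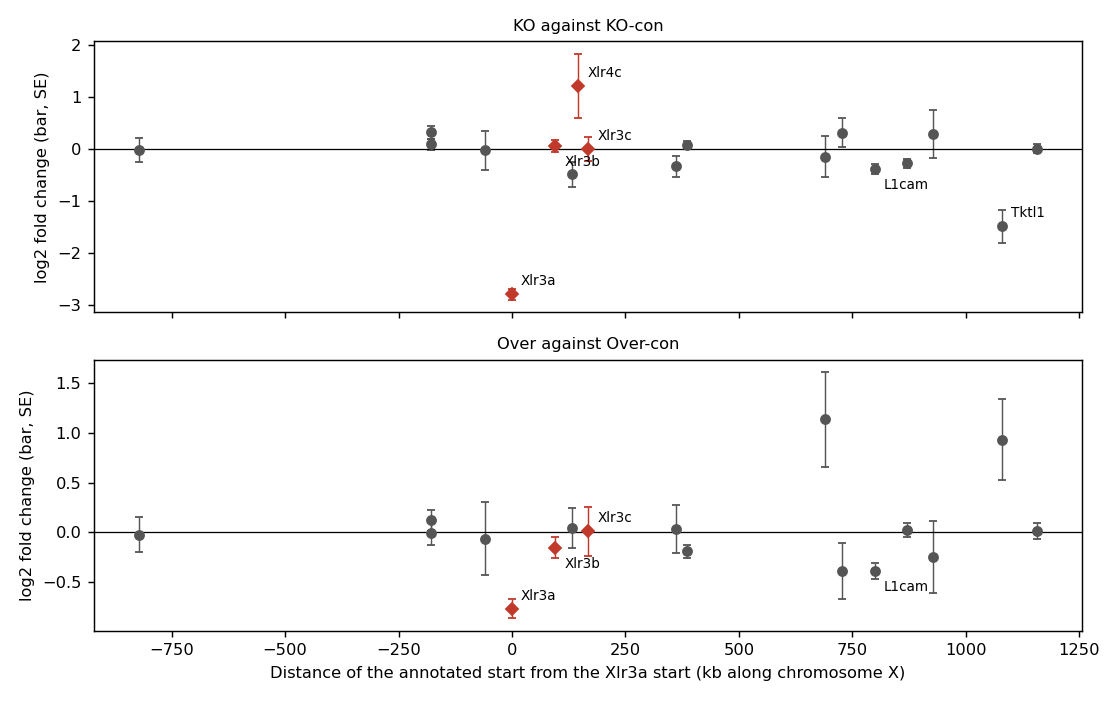
Fitted log2 fold change (vertical axes; bars are standard errors) against the distance of each gene's annotated start from that of *Xlr3a*, in kb along chromosome X, for the tested genes within 1 Mb of the cluster that are reported here; red diamonds are members and grey points other genes, and names are given for members and for genes with an adjusted p under 0.05. *Xlr3a* lies at -2.80 in KO against KO-con and at -0.77 in Over against Over-con, while *Xlr3b* and *Xlr3c* in the same cluster stay near 0. *Xlr4a*, the member closest to *Xlr3a*, did not pass the filter in either comparison.

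Over the rest of chromosome X, 33 of 288 tested transcripts were higher and 15 lower in KO at an adjusted p under 0.05 (16.7%, against 11.8% of all transcripts), and their median log2 fold change was 0.08. In Over against Over-con 3 were higher and 2 lower of 287 (1.74%, against 1.65%), with a median of -0.02. Of the genes of the X-inactivation centre and X-linked imprinted genes 4 were tested, and 0 passed in each of the 3 comparisons by edgeR's adjusted p. At an unadjusted p under 0.05 1 passed in KO (*Chic1*) and 0 in the others, and DESeq2 and limma-voom gave 0 DEGs. *Ftx*, a noncoding RNA of the X-inactivation centre, was at 17.0 ± 2.46 CPM in KO-con and 18.7 ± 3.81 in KO. *Xist*, another one, was at 0.703 ± 0.243 CPM in KO-con, 1.02 ± 0.303 in KO, 0.409 ± 0.112 in Over-con and 0.646 ± 0.474 in Over. The limit for genes that have several listed transcripts holds here too.

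Other genes listed with the Xlr genes, among them axis genes of meiotic chromosomes, were low. *Sycp3* (1.62 ± 0.219 CPM in KO-con) and *Sycp2*, which form the axes of meiotic chromosomes, were never above 24 counts in a library. The founding gene of the family, *Xlr*, had 7, 11 and 2 counts on its main listed transcript in KO-con, 0, 2 and 1 in KO, 10, 2 and 3 in Over-con and 0, 5 and 4 in Over, too few to pass the filter. Of the 11 genes of this list 2 were tested, and 0 passed in each comparison by edgeR, with an adjusted or an unadjusted p. By DESeq2 or limma-voom 0 were DEGs. Of the 20 synaptonemal complex and meiotic chromosome genes 5 were tested and 0 passed in each comparison by edgeR's adjusted p, with 1 at an unadjusted p under 0.05 (*Trip13*, in Over) and 0 DEGs by DESeq2 or limma-voom. *Sycp1*, the transverse filament protein, was at 10.2 ± 2.26 CPM in KO-con and 8.40 ± 1.67 in KO.

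Of the 23 genes of DNA methylation and germline gene silencing 9 were tested, and 0 passed in KO against KO-con and in Over against Over-con by edgeR's adjusted p. *Trim28* was the 1 gene at an unadjusted p under 0.05 in each of these, and DESeq2 and limma-voom gave 0 DEGs. With all 12 libraries in 1 fit, the list held 1 DEG in KO against KO-con. Between the controls *Tet3* was higher in KO-con than in Over-con (log2 fold change 0.56, adjusted p = 0.0358, edgeR). *Trim28*, a corepressor that keeps methylation at imprinted genes, was at 469.9 ± 17.5 CPM in KO-con, 394.9 ± 35.9 in KO, 432.0 ± 21.7 in Over-con and 497.5 ± 9.68 in Over. *Dnmt1* and *E2f6* were under 1.1 CPM on average in every group, with the same limit for genes that have several listed transcripts. *Uhrf1*, *Dnmt3b* and *Setdb1* were among the genes of this list with 0 counts over all 12 libraries. The 9 tested therefore do not cover the list. Of the other X-linked germ cell genes 3 were tested, and in KO *Tktl1* fell and *Taf7l*, a germ cell paralog of a general transcription factor subunit, rose from 41.1 ± 1.77 to 59.3 ± 4.82 CPM (log2 fold change 0.54, adjusted p = 0.00101, edgeR). *Taf7l* did not pass in Over against Over-con.

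The genes whose log2 CPM followed *Xlr3a* most closely, by Pearson's r over the 12 libraries and 9898 transcripts, lie outside the cluster. *Xlr3a* was used because it had the highest mean level of the members, at 65.9 CPM against 65.7 for *Xlr3b*. They were *Slc17a9*, a vesicular nucleotide transporter (r = 0.994), *Ccn3*, a secreted matricellular protein (0.991), *Tmem64*, a transmembrane protein (0.984), *Cd48*, a surface receptor of blood cells (0.974), and *C920009B18Rik* (0.966). The genes most like *Xlr3b* by the same measure were other ones, the first of them *Lrrc27* (r = 0.917). The 12 points share 4 lines, so a gene that differs between lines in the same order scores highly, and the values are a description.

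*Slc17a9* was at 52.8 ± 7.25 CPM in Over-con, 30.3 ± 2.50 in Over, 25.8 ± 3.49 in KO-con and 2.30 ± 0.358 in KO, the same order as *Xlr3a*. *Ccn3* was at 668.7 ± 100.5, 316.7 ± 18.4, 235.3 ± 6.90 and 15.6 ± 1.22 in these groups, and *Cd48* at 8.70 ± 0.666, 6.10 ± 0.407, 2.93 ± 1.04 and 0.0303 ± 0.0525. *Tmem64* and *C920009B18Rik* differed less, with KO lowest at 101.9 ± 6.13 and 6.38 ± 0.616 CPM and Over-con highest at 192.6 ± 13.3 and 20.9 ± 2.85. Unlike for *Xlr3a*, their means were higher in KO-con (167.6 ± 10.7 and 20.4 ± 1.56 CPM) than in Over (164.0 ± 1.80 and 18.7 ± 0.627), with overlapping ranges. With Spearman's correlation in place of Pearson's, 2 of the 5 genes, *Slc17a9* and *Tmem64*, stayed among the 5 most alike.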

How the data were processed

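RNA-seq was analysed for 12 libraries in 4 groups of 3 (KO, KO-con, Over, Over-con), grouped and numbered by the sample titles. The authors used a stranded mRNA kit, aligned the reads to mm9 with HISAT2 and deposited raw counts per RefSeq transcript; strand setting and treatment of multiply matching reads are not given in the sources used here. Whether the 3 libraries of a group came from separate cultures is not stated, so p-values measure the spread between libraries, which may be technical. Replicate pairs differed by more than counting noise (chi-square per degree of freedom 1.93 to 12.3). A symbol was found for 41186 of 41388 transcripts in a RefSeq table of GRCm38.p6; positions came from the mm9 annotation.

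Each comparison used edgeR 4.0.16 (TMM, filterByExpr, glmQLFit, glmQLFTest) and p-values were adjusted by the Benjamini-Hochberg method, always over the whole set of tested transcripts. CPM were TMM-normalized over all 12 libraries. The members and gene lists were chosen with earlier results of these data known. Named were all members, neighbours within 1 Mb with an adjusted p under 0.05, at most 3 genes called per list, defining markers, Dppa3 and the 5 genes most like the member of highest mean; other genes were named after their values were seen. Alternatives were DESeq2 1.42.0, limma-voom 3.58.1, other scalings and filters, all libraries in 1 fit, the replicate block, the other control, no fold change threshold and each library left out. Sequences were compared with Python 3.11.15 and Biopython 1.88; window lengths over 50 bases, the *Xlr3a* share, and the marker sums without Dppa3 or *Vim* were added after seeing the data. The edgeR step was tested on simulated data. A neighbouring gene and a lymphocyte marker are not reported here and were left out of their lists.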

Additional observations from a re-analysis of the deposited data

Results flagged for a closer look

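*Xlr3b* was singled out because every KO library lay above the KO-con mean and every Over library lay below the Over-con mean. Its log2 fold changes were 0.061 in KO against KO-con and -0.16 in Over against Over-con, the groups overlapped in both, and the difference between the 2 values was not tested.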

How the results depend on the processing

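The number of members called as DEGs was 1 in KO against KO-con and 0 in both other comparisons under all tools, scalings and filters tried and with all 12 libraries in 1 fit. With the other control it was 1 for KO and 0 for Over. Leaving out 1 library gave 1 to 2 for KO (2 without KO-con library 1), and the count for Over did not change. Without the fold change threshold the count was 1 in Over against Over-con and 1 in KO-con against Over-con. *Xlr3a* in Over reversed to 0.067 against KO-con, and *Xlr3b* then stood at -0.40, both as a description. The *Xlr3* sum in Over was -0.46 without Over library 1 and -0.47 without Over library 2 (adjusted p = 0.0728 and 0.0861, edgeR). Against KO-con the sum was at -0.16, as a description.

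Replicate numbers did not pair the libraries, since same-numbered libraries had deviations correlated at 0.057 or less. With the replicate number as a block, *Xlr3a* in Over was at -0.77 (adjusted p = 0.00149, edgeR), 1 member was called in KO against KO-con and 0 in both other comparisons. Among the neighbours, the DEG count of 1 between the controls was 0 with at least 10 counts required in every library and 0 without Over-con library 1. Counts of 0 to 18 a library limit what can be said of the *Xlr4* genes.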
